A study of Mus musculus with 18 samples.

Results

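Nmb, Ttpa, Cers4, Acsm3, Calcr and Epyc are 6 mouse genes that were chosen by their array intensities, which were higher in the meibomian glands of testosterone-treated males than in those of placebo-treated males. They are 6 of 8841 genes with an array entry that names a single gene. Each was read by 1 entry, and all 6 entries passed the filter on dim values, which left 7463 of 10500 entries to be tested. Because the meibomian comparison chose these genes, its values are given for them as a description without a test. The tests of these genes concern the lacrimal and submandibular glands, in their changes and in the difference in level between them. Meibomian levels are set against theirs as a description.

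The study measured gene expression on 18 one-colour arrays from BALB/c male mice whose testes had been removed, in placebo and testosterone animals alike, so that all 6 groups lacked testicular androgen. The mice then carried a hormone pellet, either placebo or testosterone, for 21 days. Tear-producing lacrimal glands, lipid-secreting meibomian glands (of the eyelids) and salivary submandibular glands were collected, giving 6 groups of 3 arrays. Each array held RNA from 1 pool, lettered A, B or C. A pool is described as 10 glands taken from 5 animals, while another label counts 4 animals per sex in an experiment. Age, pellet dose, array platform and scaling method are not given in the sources used here. Values are scaled intensities, with array medians between 0.929 and 0.952. They have no absolute unit, and an intensity is compared only with other intensities of the same entry.

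The meibomian gland is a modified sebaceous gland: its acinar cells, the meibocytes, fill with lipid and burst to release meibum, the oily outer layer of the tear film. Testosterone acts through the androgen receptor, a nuclear receptor that binds DNA at androgen response elements, and androgens are known to promote lipid synthesis in sebaceous-type glands. Cers4, Acsm3 and Ttpa have roles in lipid handling. The first encodes a ceramide synthase of the endoplasmic reticulum, which joins a fatty acyl-CoA to a sphingoid base, the next a mitochondrial medium-chain acyl-CoA synthetase, and Ttpa the alpha-tocopherol transfer protein, which carries vitamin E. Nmb encodes neuromedin B, a peptide of the bombesin family, Calcr the calcitonin receptor, a class B G protein-coupled receptor, and Epyc epiphycan, a small leucine-rich proteoglycan of cartilage.

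RefSeq promoter windows of build GRCm38.p6, running from 250 bases before to 50 bases after a transcript start, were held for 5 of the 6 genes. Ttpa was not analysed here. They were searched on both strands for AGAACA, the hexamer of the androgen response element, and for the full palindrome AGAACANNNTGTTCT, which contains it. The hexamer stood in 19% of 32851 mouse windows, and the palindrome in 0.00913%. Among the 5 genes, the Nmb window alone held the hexamer, and no window held the palindrome. The Nmb stretch is shown because it is that match: it lies at chr7:80905256-80905312, minus strand, 229 bases before the transcript start, and the capitals mark the hexamer as read on the opposite strand.
Nmb: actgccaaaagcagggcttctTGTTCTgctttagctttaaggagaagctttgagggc
A match of these letters is not evidence of a bound site, and the absence of one in the other windows concerns these 300 bases only.

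Defining markers were bright in each labelled gland, apart from Mc5r in the meibomian gland. In placebo meibomian pools the elongase gene Elovl3 measured 102 ± 2.9 (SD, n = 3) against 0.432 ± 0.067 in placebo lacrimal pools, and the lipid droplet gene Plin2 measured 95.8 ± 2.5. The melanocortin receptor gene Mc5r, a sebaceous marker, was low in placebo meibomian pools at 0.488 ± 0.031. The meibomian pools also held skeletal muscle and keratinising epithelium signal, with Tnnc2 at 80.1 ± 9.6 and Sprr1a at 111 ± 4.6 in placebo. The lactoferrin gene Ltf measured 79.4 ± 4.3 in placebo lacrimal pools against 0.511 ± 0.23 in placebo submandibular pools, and the kallikrein gene Klk1b5 measured 5.25 ± 8.2 and 687 ± 50 in the same pools. Meibomian arrays had a lower ceiling than the others, with maxima of 135 to 219 against 597 to 1042 in lacrimal and 636 to 743 in submandibular arrays. Their 10th percentiles were lower too, at 0.051 to 0.074 against 0.211 to 0.316 in lacrimal and 0.211 to 0.243 in submandibular arrays. Both limit comparisons of level between glands, the second for dim entries such as Calcr. In these bulk samples, fewer cells of a type and less RNA per cell cannot be told apart. The labels call the pools separate, and p-values measure the spread between pools, not between animals.

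In the meibomian gland all 6 genes had every testosterone pool above every placebo pool, a pattern that the choice of genes fixed. Of all entries there, 35.7% had pools that did not overlap between treatments, 24% with testosterone above and 11.8% with testosterone below. Over all entries 0.469% were called higher and 0.121% lower by limma at an adjusted p of 0.05, which is 35 and 9 entries, and nothing is read from the genes' place among them.

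Of the lipid-handling genes, Cers4 measured 11.9, 13.4 and 13.2 with placebo (meibomian pools A, B and C in this order, here and for the genes that follow) and 18.6, 27.6 and 25.2 with testosterone. All placebo pools were close together and the testosterone pools were spread more widely, with pool A the lowest. The log2 difference, testosterone minus placebo, was 0.87 ± 0.16 (SE), a 1.82-fold higher value on the log2(intensity + 0.174) scale used throughout. Acsm3 measured 7.19, 8.11 and 7.93 with placebo and 16.7, 16.6 and 13.2 with testosterone. Its testosterone pool C was the lowest but still above every placebo pool. Its difference was 0.98 ± 0.15, or 1.97-fold. Ttpa measured 1.55, 1.60 and 1.86 with placebo and 5.42, 5.61 and 4.07 with testosterone, a difference of 1.49 ± 0.26 or 2.80-fold. Here too pool C was the lowest of the testosterone pools.

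The peptide gene Nmb had the widest separation of the 6. It measured 4.00, 4.13 and 4.32 in meibomian placebo pools and 15.2, 15.4 and 9.28 in testosterone pools, a difference of 1.60 ± 0.21 or 3.04-fold. Testosterone pools A and B were nearly equal and pool C lay well below them. Calcr measured 0.514, 0.522 and 0.514 with placebo, near the 40th percentile of each array, and 0.977, 1.44 and 1.22 with testosterone. Its difference was 0.99 ± 0.20 or 1.99-fold, and because these signals are dim the size depended on the offset: with an offset 4-fold larger it was 0.65. Epyc measured 1.86, 2.87 and 2.04 with placebo and 5.83, 4.81 and 3.44 with testosterone, a difference of 0.99 ± 0.20 or 1.99-fold. Its placebo pool B came closest to the testosterone range, without entering it.

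**Figure D1:**
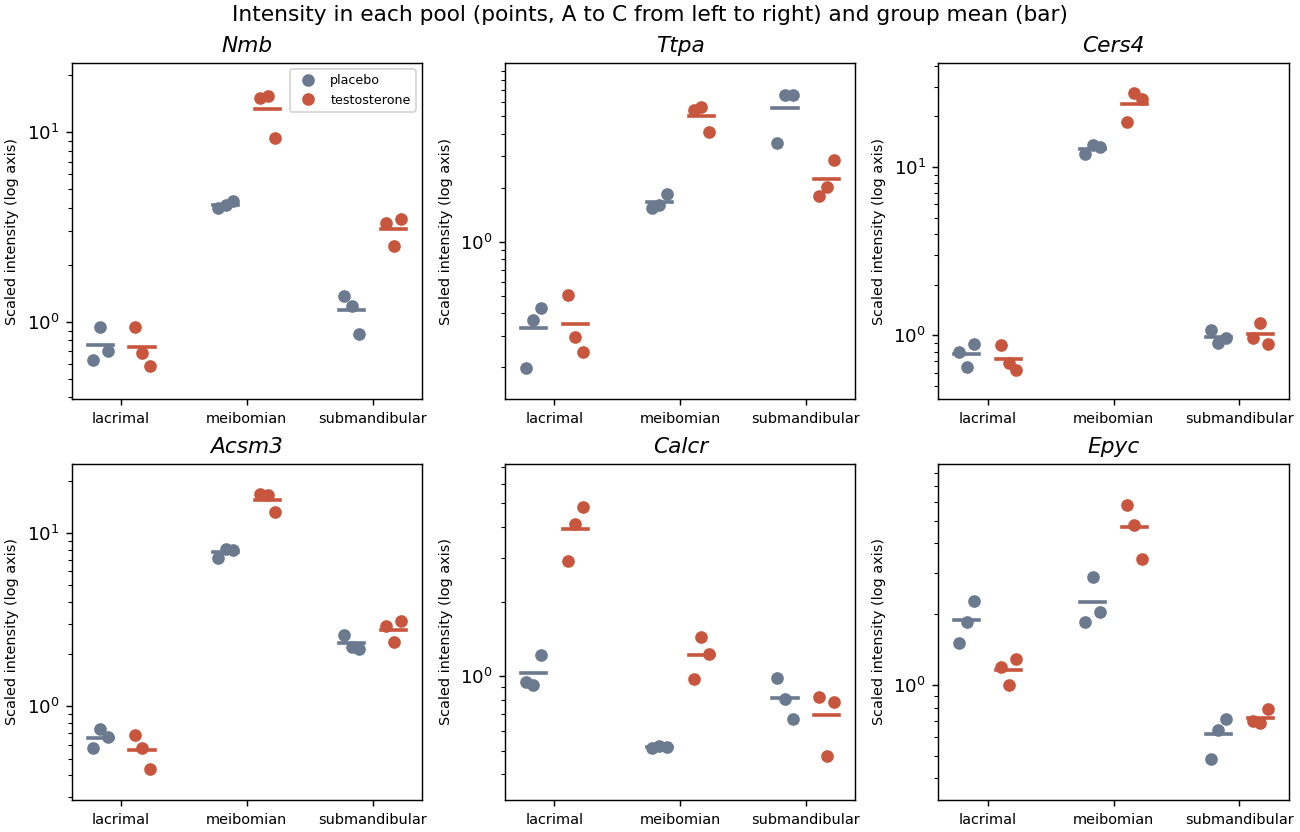
Scaled intensity (log axis) of each of the 6 genes in every pool of the 3 glands, placebo and testosterone shown apart, 1 point per pool (A to C from left to right) and a bar at the group mean. In the meibomian panels all testosterone points lie above all placebo points; Calcr in the lacrimal gland and Nmb in the submandibular gland separate the same way, while Ttpa in the submandibular gland and Epyc in the lacrimal gland separate the other way.

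Ranked by size of rise over the 7463 tested entries, Nmb stood at 2, Ttpa at 3, Epyc at 12, Calcr at 13, Acsm3 at 16 and Cers4 at 30. Entries of like brightness had median meibomian changes between -0.02 and 0.14. The choice of genes fixed their high ranks, which are given as a description. The size of the rise was not even over testosterone pools. Set against the placebo mean, the median of the 6 genes was 1.21 in pool A, 1.16 in pool B and 0.99 in pool C. Pool C was the lowest testosterone pool for 4 of the 6 genes, the exceptions being Cers4 and Calcr, for which pool A was lowest. The other 29 entries called higher had medians of 0.87, 0.77 and 0.56 in the same pools, and pool C was lowest for 26 of them. Over all tested entries the medians were 0.10, 0.07 and 0.03.

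**Figure D2:**
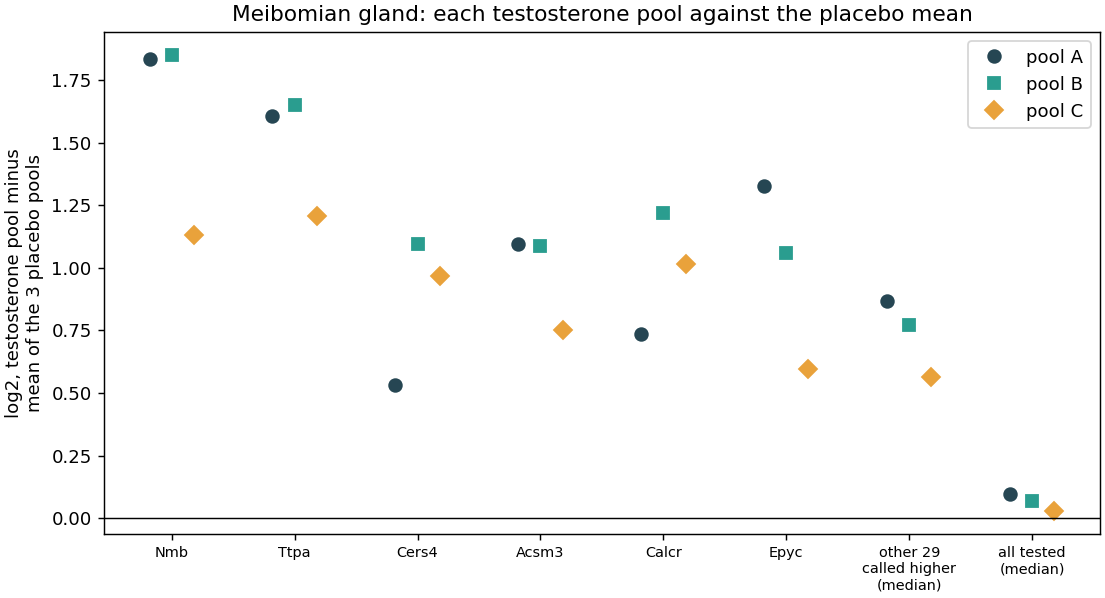
Log2 difference of each meibomian testosterone pool (A, B, C) from the mean of the 3 placebo pools, for the 6 genes, the median of the other 29 entries called higher and the median of all tested entries. Pool C is the lowest point for Nmb, Ttpa, Acsm3 and Epyc; Cers4 and Calcr have pool A lowest.

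Some sums of cell-type markers shifted in the same pools. The summed intensity of 10 sebaceous and meibocyte entries was 458 to 468 in meibomian placebo pools and 689, 602 and 527 in testosterone pools A, B and C, although 0 of the 10 were called by limma. Bright entries weighed most in that sum, with Elovl3 means of 102 and 143 and Plin2 means of 95.8 and 132. Dgat2 (19.6 and 17.9) and 1 of 2 Fasn entries (1.71 and 1.63) had lower means with testosterone. The other entries of the sum had higher means. Leukocyte markers (6 entries) summed to 62.6 to 76.8 with placebo and 41.4 to 61.0 with testosterone, with 1 of 6 called lower. Placebo arrays had 99th percentiles of 97.7 to 101. Testosterone arrays had 148, 123 and 106 in pools A, B and C, the same order as the sebaceous sums. Lacrimal secretory markers summed to 19.0 to 23.3 with placebo and 13.6 to 18.5 with testosterone, and granular tubule and acinar markers to 2.18 to 2.39 and 2.49 to 3.26. The other 8 marker sums overlapped between treatments, with 1 stratified epithelium and 1 adipocyte entry called lower. No marker entry was at 0 in all pools of a group, and the part of these shifts in the genes' differences was not tested.

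In the lacrimal gland Calcr rose and Epyc fell with testosterone, and the other 4 genes were not called. Of all tested entries 28.1% were called there, 13.3% higher and 14.8% lower, so 2 of 6 is near the background. Pools did not overlap between treatments for 39.6% of entries, 18.2% with testosterone above and 21.4% below. Calcr measured 0.945, 0.918 and 1.21 in placebo pools and 2.91, 4.10 and 4.81 in testosterone pools, all above the placebo range. The log2 change was 1.76 ± 0.20, a 3.38-fold rise (limma adjusted p = 4.94e-06), and the call held under all 30 alternatives. Epyc measured 1.51, 1.85 and 2.27 with placebo and 1.19, 0.995 and 1.29 with testosterone. Its pools did not overlap, and the log2 change was -0.61 ± 0.20, a 1.53-fold fall (limma adjusted p = 0.0321). The Epyc call was lost when lacrimal placebo pool B or C, or testosterone pool A or B, was left out, with limma adjusted p of 0.0728, 0.132, 0.0536 and 0.116.

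The 4 genes not called in the lacrimal gland had overlapping treatment groups there. Nmb measured 0.633, 0.939 and 0.706 with placebo and 0.945, 0.686 and 0.586 with testosterone, a log2 difference of -0.04 with a 95% interval from -0.49 to 0.42. Ttpa was dim in this gland, at 0.199, 0.367 and 0.426 with placebo and 0.503, 0.294 and 0.245 with testosterone, and its interval ran from -0.50 to 0.59. Cers4 stayed between 0.624 and 0.887 over all 6 pools, with an interval from -0.42 to 0.26. Acsm3 stayed between 0.433 and 0.739, with an interval from -0.51 to 0.13.

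Several marker sums also moved in the lacrimal gland. Lacrimal secretory markers summed to 1228 to 1286 with placebo and 339 to 453 with testosterone, with 5 of 6 entries called lower. Osteoclast markers without Calcr, named because the calcitonin receptor is known from osteoclasts, had sums of 9.83 to 11.7 (placebo) and 5.13 to 7.23 (testosterone), the opposite direction to Calcr, and Acp5 was the entry of the 2 tested that was called lower. Fibroblast markers summed to 32.1 to 40.5 with placebo and 23.7 to 27.8 with testosterone, and cartilage markers to 7.21 to 9.49 and 6.18 to 6.99, the same direction as Epyc. Among the fibroblast entries in the sum Lum was called lower, Fap, which is not in the sum, was called higher, and 0 of 5 tested cartilage entries were called. Sebaceous marker sums were 19.8 to 20.9 with placebo and 27.5 to 42.2 with testosterone, with 4 of 10 called higher and 2 lower. The 2 melanocyte entries summed to 0.871 to 1.22 with placebo and 3.09 to 3.81 with testosterone. Pmel, called higher, had means of 0.587 and 3.12, whereas Dct had 0.461 and 0.333 and was not called. Nerve marker sums were 9.35 to 10.8 and 7.78 to 9.07. The part of these shifts in the Calcr and Epyc changes was not tested.

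In the submandibular gland Nmb rose and Ttpa fell, and the other 4 genes were not called, against 13.8% of all tested entries called in this gland, 8.54% higher and 5.25% lower. Pools did not overlap for 28.8% of entries here, 16.5% with testosterone above and 12.3% below. Nmb measured 1.38, 1.22 and 0.860 in placebo pools and 3.32, 2.50 and 3.48 in testosterone pools. All testosterone pools were higher, the log2 change was 1.31 ± 0.21, a 2.48-fold rise (limma adjusted p = 0.000552), and the call held under all 30 alternatives. Ttpa measured 3.54, 6.60 and 6.58 with placebo and 1.80, 2.02 and 2.85 with testosterone. Placebo pool A was much closer to the testosterone pools than B and C were, yet the groups did not overlap. The log2 change was -1.23 ± 0.26, a 2.35-fold fall (limma adjusted p = 0.00402), the opposite direction to this gene's meibomian difference. With the submandibular arrays fitted alone, the Ttpa call was lost at a limma adjusted p of 0.059.

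Cers4, Acsm3, Calcr and Epyc had overlapping submandibular groups. Cers4 lay between 0.891 and 1.18 in all 6 pools, and the 95% interval of its log2 difference ran from -0.30 to 0.38. Acsm3 measured 2.56, 2.21 and 2.15 with placebo and 2.89, 2.34 and 3.09 with testosterone, with an interval from -0.08 to 0.56. Calcr measured 0.980, 0.805 and 0.670 with placebo and 0.822, 0.473 and 0.783 with testosterone, with an interval from -0.64 to 0.22. Epyc measured 0.485, 0.643 and 0.715 with placebo and 0.702, 0.685 and 0.786 with testosterone, with an interval from -0.23 to 0.63.

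Adipocyte markers moved beside Ttpa in this gland. The 3 entries summed to 46.6 (pool A), 78.3 (B) and 134 (C) with placebo and to 41.9, 45.8 and 46.3 with testosterone. The fatty-acid binding protein gene Fabp4 and the resistin gene Retn were the 2 of 3 called lower. Skeletal muscle markers summed to 4.62 to 11.3 with placebo and 3.74 to 4.46 with testosterone, with 2 of 9 entries called lower. Nerve and Schwann cell markers summed to 11.1 to 13.5 with placebo and 14.9 to 15.9 with testosterone, with 1 of 4 tested entries called higher. That entry was Pmp22, with means of 7.84 and 11.6. The other tested entries had lower means with testosterone and were not called: Snap25 (1.48 and 1.22), Tubb3 (1.24 and 1.09) and S100b (0.437 and 0.343). Other sums that did not overlap were sebaceous (40.9 to 59.6 with placebo, 27.3 to 36.3 with testosterone, 2 of 10 called lower), stratified epithelium (8.79 to 9.46 and 7.26 to 8.17), fibroblast (41.5 to 49.7 and 50.2 to 57.5, 3 of 7 tested entries called higher) and osteoclast without Calcr (12.7 to 14.1 and 14.7 to 15.4, 1 of 2 tested entries called higher). Granular tubule and acinar markers summed to 694 to 789 and 815 to 903, with 2 of 4 called higher (Egf and Smr2). Klk1b5 and Bhlha15 had lower means with testosterone, 687 and 509 and 7.75 and 4.39, and were not called. The part of these shifts in the Nmb and Ttpa changes was not tested.

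**Figure D3:**
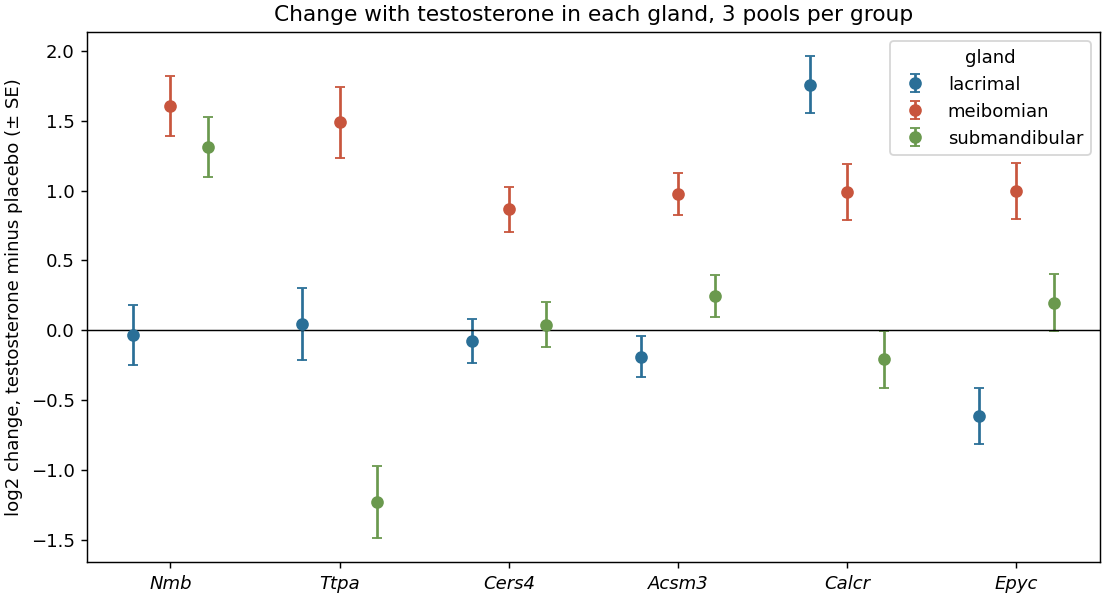
Log2 change, testosterone minus placebo, of each gene in the 3 glands, with bars for ± SE from the fit over all 18 arrays (3 pools per group). The meibomian points chose the genes; the lacrimal Calcr and submandibular Nmb points lie above 0 by several SE, the submandibular Ttpa and lacrimal Epyc points lie below 0, and Cers4 and Acsm3 stay near 0 outside the meibomian gland.

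The lacrimal and submandibular responses were then compared directly. The change differed between these glands for 4 of the 6 genes, where 24% of all tested entries differed, 10.3% with the higher change in the lacrimal gland and 13.8% with the lower. It was 1.97 ± 0.29 higher in the lacrimal gland for Calcr (limma adjusted p = 9.23e-05) and 1.28 ± 0.36 higher for Ttpa (0.0175). Lacrimal Ttpa signals were dim, between percentiles 2.18 and 31.9 of their arrays, so a fall in that gland would hardly show. For Nmb the lacrimal change minus the submandibular change was -1.35 ± 0.30 (limma adjusted p = 0.00398), and for Epyc -0.81 ± 0.29 (0.0493). The Epyc difference lost its call under 19 of 30 alternatives, with limma adjusted p between 0.0216 and 0.117, and the Ttpa difference reached 0.0508 when each gland was fitted alone. Cers4 differed by -0.12, with an interval from -0.60 to 0.36, and Acsm3 by -0.43, with an interval from -0.88 to 0.02, neither of them called.

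Levels were compared between glands as the mean over both treatments. A meibomian mean includes the testosterone pools that chose the genes, and so part of their rise. Comparisons with the meibomian gland are therefore given for these genes as a description without a test. Over all entries, 77.5% differed in level between the meibomian and lacrimal glands (35% higher and 42.5% lower in the meibomian gland). Cers4 was 19.0-fold and Acsm3 14.3-fold higher in the meibomian gland, Nmb 8.26-fold, Ttpa 6.13-fold and Epyc 2.06-fold higher. These sizes depended on the processing. With all arrays kept, the alternatives gave log2 differences of 3.645 to 4.462 for Cers4 (4.251 in the main fit). For Ttpa they gave 1.831 to 2.993 (2.616 in the main fit). The Epyc placebo pools of these glands overlapped. Calcr alone was lower in the meibomian gland, by 2.25-fold. Between the meibomian and submandibular glands 76.7% of entries differed (35.7% higher and 41% lower in the meibomian gland). Cers4 was 15.1-fold, Acsm3 4.12-fold, Epyc 4.03-fold and Nmb 3.66-fold higher in the meibomian gland. The means of Ttpa and Calcr were close there, with log2 differences of -0.23 and 0.09 and intervals from -0.62 to 0.15 and from -0.22 to 0.39. Both genes differed in opposite directions within the 2 treatments. The Ttpa difference was -0.37 when submandibular placebo pool A was left out. Between the lacrimal and submandibular glands all 6 differed, 2 higher in lacrimal (Calcr 2.40-fold, Epyc 1.96-fold) and 4 lower (Ttpa 7.20-fold, Acsm3 3.46-fold, Nmb 2.25-fold, Cers4 1.26-fold), where 60.3% of entries differed (34.6% higher and 25.7% lower in lacrimal).

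The order of the glands was not the same in both treatments for every gene, and it is given here by the pools as a description. For Cers4 and Acsm3 it was meibomian, submandibular, lacrimal, with no overlap between neighbours in either treatment. Nmb had the same order with testosterone, but its placebo submandibular pools (0.860 to 1.38) overlapped the lacrimal ones (0.633 to 0.939). Epyc ran meibomian, lacrimal, submandibular with testosterone, whereas its placebo meibomian pools (1.86 to 2.87) overlapped the lacrimal ones (1.51 to 2.27). Ttpa was lowest in the lacrimal gland in both treatments. Its meibomian pools lay below the submandibular pools with placebo (1.55 to 1.86 against 3.54 to 6.60) and above them with testosterone (4.07 to 5.61 against 1.80 to 2.85). Calcr also changed order: its meibomian pools lay below the submandibular pools with placebo (0.514 to 0.522 against 0.670 to 0.980) and above them with testosterone (0.977 to 1.44 against 0.473 to 0.822). Its lacrimal pools were highest with testosterone and overlapped the submandibular pools with placebo.

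The entries most like each gene over the 18 arrays were found by Pearson r on the log2 scale among 6438 entries, as a description in which differences between glands carry most of the weight. Cers4 was most like Lgals7 (r = 0.990), Elovl3 (0.989) and Elovl4 (0.989), the last pair being elongases of very long fatty acids. Acsm3 was most like Apoe (0.985), Cav2 (0.985) and Anxa1 (0.984), and Nmb most like Sdf2 (0.958), Ctsd (0.957) and Tmem106b (0.955). For Epyc they were 3 proteasome subunit genes, Psmb6 (0.959), Psmb7 (0.956) and Psma1 (0.948). Ttpa was most like the mitochondrial genes Cyc1 (0.933), Oxct1 (0.931) and Cox7a1 (0.916), and Calcr most like Crisp2 (0.946), Glt8d2 (0.929) and Foxp3 (0.921).

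With each gland's mean subtracted, so that pools and treatments carry the weight, other entries led. They were Vamp8 (0.940), Rit1 (0.920) and Mcee (0.904) for Nmb, Cgnl1 (0.903), Snap25 (0.879) and Ece2 (0.866) for Ttpa, and Cops5 (0.903), Emc9 (0.897) and Rab9 (0.897) for Acsm3. For Cers4 they were Atp5k (0.818), Itpripl1 (0.757) and Pnkd (0.754), and for Calcr Tstd3 (0.922), Cutc (0.909) and Prss16 (0.907). Epyc kept a proteasome gene among its nearest, with Psma4 (0.917), Acot13 (0.858) and Psmb6 (0.830). Among the 6 genes themselves, Nmb and Acsm3 were the most alike pair, at 0.951 over the arrays and 0.889 with gland means subtracted. Calcr and Epyc were the least alike on the second measure, at -0.05. The meibomian rise that chose the 6 genes is part of these values, so part of the likeness between them was fixed by the choice.

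Other genes of the same pathways were taken from 6 lists, of which 104 genes other than the 6 were tested. In the meibomian gland 1 of the 104 was called higher and 0 lower (0.962%, against 0.59% of all entries), while 17 rose and 31 fell in the lacrimal gland (46.2%, against 28.1%) and 19 rose and 5 fell in the submandibular gland (23.1%, against 13.8%). The counts of single lists that follow stand against the same shares of all entries. The list gene called in the meibomian gland was Kdsr, which encodes the reductase that makes the sphingoid base dihydrosphingosine. It measured 11.2 ± 0.12 with placebo and 17.9 ± 1.6 with testosterone (SD, n = 3), a log2 change of 0.67 ± 0.12 (limma adjusted p = 0.0207). In the lacrimal gland Kdsr fell by 0.41 (limma adjusted p = 0.0186). The meibomian Kdsr call was lost without any single meibomian pool other than testosterone pool C, and under 2 other settings, with limma adjusted p of up to 0.126.

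Of the bombesin-like peptides, receptors and peptide processing genes, 8 were tested, and 2 rose and 4 fell in the lacrimal gland, with a median of -0.53 against -0.07 over all entries. The neuromedin B receptor gene Nmbr rose by 0.78 there (limma adjusted p = 0.00273) and the gastrin-releasing peptide receptor gene Grpr fell by 0.44 (0.046). The prohormone convertase gene Furin fell by 1.47 in the lacrimal gland (limma adjusted p = 0.000118) and rose by 1.08 in the submandibular gland (0.00426), where it was the list's single call. Chga rose by 0.82 and Cpe fell by 0.82 in the lacrimal gland. Of the 8, 0 were called in the meibomian gland and the median was 0.18 against 0.06 over all entries. Nmbr was 0.24 ± 0.17 and Grpr, the list's lowest p there, 0.43 ± 0.16 (limma adjusted p = 0.241).

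Among 23 vitamin E transport and lipid antioxidant genes, 2 rose and 7 fell in the lacrimal gland and 7 rose in the submandibular gland, where Ttpa fell. The glutathione synthesis gene Gclc rose in both, by 1.26 in the lacrimal (limma adjusted p = 4.91e-07) and 1.85 in the submandibular gland (2.22e-08). The superoxide dismutase gene Sod1 and the lipoprotein lipase gene Lpl fell by 1.20 and 1.17 in the lacrimal gland. The lipid transporter gene Abcg1 rose by 1.17 and the lipoprotein receptor gene Scarb1 by 1.13 in the submandibular gland. None passed in the meibomian gland (0 of 23), where the median was 0.10 and the lowest p belonged to the glutathione peroxidase gene Gpx3 at 1.18 ± 0.27 (limma adjusted p = 0.0578).

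Of 27 ceramide and sphingolipid genes, in the pathway of Cers4, 8 rose and 6 fell in the lacrimal gland, 5 rose and 3 fell in the submandibular gland, and Kdsr alone was called in the meibomian gland. The glycosphingolipid synthesis genes B4galt6 and St3gal5 rose in the lacrimal gland by 3.43 and 3.10 (limma adjusted p = 2.49e-11 and 1.69e-09), and the sphingomyelin synthase gene Sgms2 by 2.72. In the submandibular gland Abhd5, a lipase activator gene, rose by 2.30, the galactosylceramidase gene Galc by 2.12 and St3gal5 by 1.80. Meibomian values of these genes were not called: B4galt6 was -0.00 ± 0.15, St3gal5 0.14 ± 0.19 and Galc -0.02 ± 0.17. The list had medians of -0.16 (lacrimal), 0.06 (meibomian) and 0.06 (submandibular). No other ceramide synthase gene was analysed here.

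The 17 acyl-CoA synthetase and elongase genes, listed with Acsm3, had a median of 0.31 in the meibomian gland, and 0 were called. The median there was 0.06 over all entries and 0.14 over entries in the brightness range of Acsm3. Elongase genes of the list were among the bright ones, with Elovl4 at 125 and Elovl3 at 102 in placebo. Acsl4 had the lowest p there, at 0.77 ± 0.23 (limma adjusted p = 0.154). In the lacrimal gland 4 rose and 5 fell: the synthetase gene Acsbg1 rose by 4.38 (limma adjusted p = 4.23e-09), from 0.704 ± 0.53 to 16.4 ± 3.1, the fatty acid transport gene Slc27a2 by 3.56 and Acss2 by 1.39. In the submandibular gland 3 rose, among them Slc27a2 by 2.75 and Hacd2 by 1.12, and 2 fell, among them Slc27a1 by 0.68. Acsm1, the other Acsm gene tested, fell by 1.36 in the lacrimal gland (limma adjusted p = 0.000194). Its meibomian value was -0.33 ± 0.22 and its submandibular value -0.22 ± 0.22, neither called.

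Of 9 genes of the calcitonin receptor family and other class B receptors and ligands, 4 fell and 0 rose in the lacrimal gland, where Calcr rose, with a median of -0.47. The corticotropin-releasing hormone receptor gene Crhr2 fell by 1.10 (limma adjusted p = 3.19e-05), Ramp1, which encodes a partner protein of this receptor family, by 0.59 (0.0238), and the amylin gene Iapp by 0.49. The adrenomedullin gene Adm fell by 0.49 in the lacrimal gland and rose by 0.49 in the submandibular gland, the list's single call there. Ramp2 and the calcitonin receptor-like gene Calcrl were called in no gland, with values from -0.06 to 0.04 and from -0.27 to -0.08. Of the 9, 0 were called in the meibomian gland, the median was 0.09, and Crcp had the lowest p at 0.35 ± 0.13 (limma adjusted p = 0.232).

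Of 20 small leucine-rich and other proteoglycan genes, 1 rose and 5 fell in the lacrimal gland, where Epyc fell, and 2 rose in the submandibular gland. The fallers included the cell-surface proteoglycan gene Sdc2 at -1.03, Vcan at -0.91, and 3 of Epyc's family, Optc at -0.84 (limma adjusted p = 5.18e-05), Kera at -0.74 (0.00314) and Lum at -0.69 (0.0133). Others of the family were not called there: Ogn (-0.62), Dcn (-0.32), Omd (0.02), Chad (0.05), Bgn (0.18) and Aspn (0.19). The list's lacrimal median was -0.14 against -0.07 over all entries. In the submandibular gland Omd rose by 0.97 (limma adjusted p = 0.00783) and Kera by 0.67 (0.0131). In the meibomian gland 0 of 20 were called and the median was 0.07. Within the family, values there were 0.87 ± 0.31 for Aspn, 0.69 ± 0.24 for Ogn, 0.65 ± 0.22 for Omd (the lowest p, limma adjusted p = 0.218), 0.32 ± 0.20 for Dcn and -0.28 ± 0.17 for Bgn. Chad, at 0.29 ± 0.16 there, was called in no gland.

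**Figure D4:**
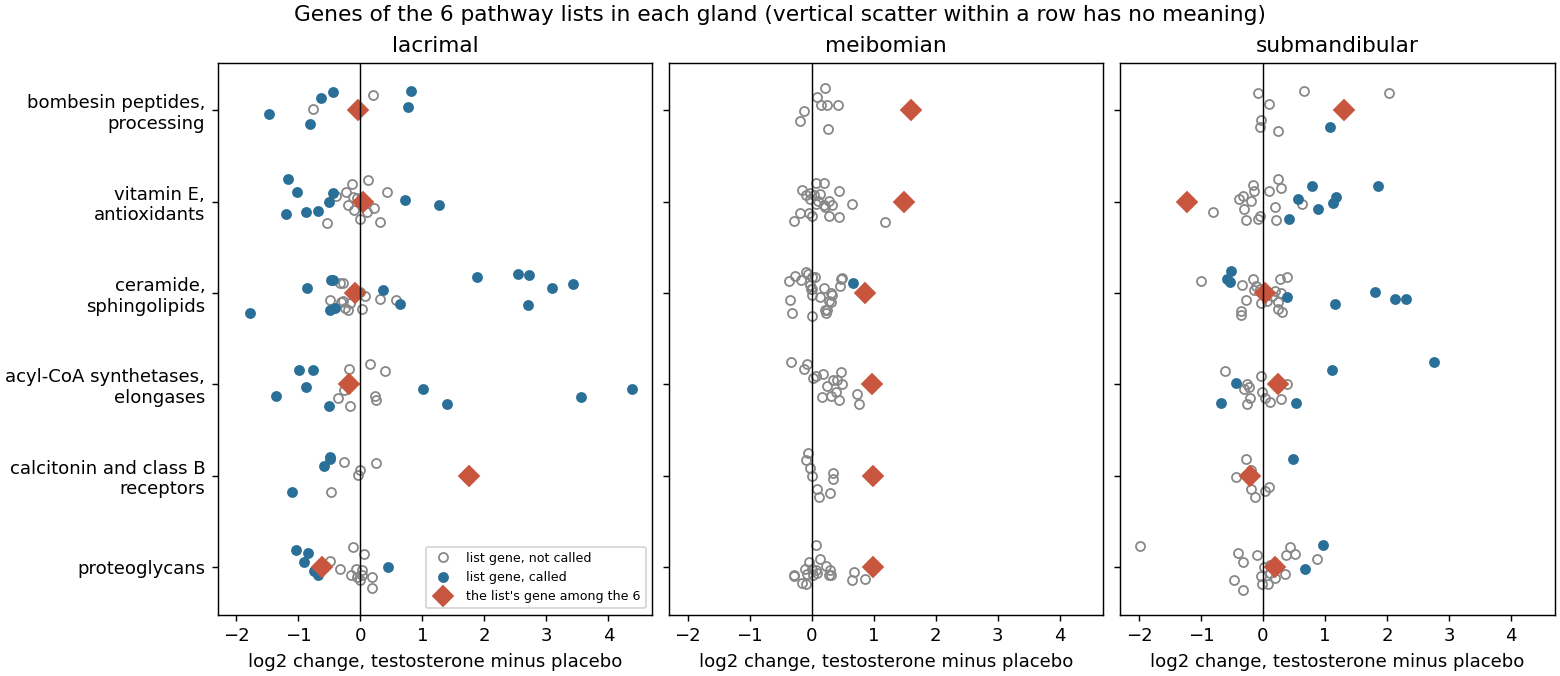
Log2 change, testosterone minus placebo, of every tested gene of the 6 pathway lists in each gland, on 1 shared scale. Filled points are called by limma, open points are not, and diamonds are the 6 genes; in the meibomian panel the diamonds lie at 0.87 to 1.60, as the choice of the genes fixed, the list gene Gpx3 lies among them at 1.18, and 1 list gene (Kdsr) is filled.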

How the data were processed

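The authors deposited 1 scaled intensity per entry and array; how the arrays were scanned, background-corrected and scaled was left unstated (not given in the sources used here), and no scanner values were used. A value of -1 was read as no value and other negative values as 0. Gene names came from the platform annotation: 8983 entries named 1 gene, 1 several and 1516 none.

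Intensities were set to log2(intensity + 0.174), the offset being the 10th percentile of positive values. Entries needed 2 values per group and had to exceed the 40th percentile of their array on 3 arrays. This removed 146 entries for missing values and 2891 as dim. One limma fit (limma 3.58.1, R 4.3.3; 1 mean per group, 12 residual degrees of freedom, trended eBayes) gave all contrasts, with Benjamini-Hochberg adjustment over 7463 entries and calls at 0.05. The script was tested on simulated data. Pool letters were not used to pair samples. Within each gland, deviations of the placebo and testosterone pools of the same letter correlated at -0.11 to 0.14 over 9 pairs. Whether pools of different glands came from the same animals was not tested, and the comparisons between glands treat them as separate. Spearman correlations between pools of a group were 0.904 to 0.992. The number of arrays limits precision.

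The 6 genes and all lists were chosen with earlier results of these data known. Named genes were up to 3 called genes per list and gland with the largest changes (otherwise the lowest p), tested genes of the 6 genes' families, the brightest 1 or 2 markers per list, and the 3 most alike entries. Mc5r, Dgat2, Fasn, Ltf, Acp5, Lum, Fap, Retn, Pmp22, Snap25, Tubb3, S100b, Pmel, Dct, Smr2 and Bhlha15 were named as markers after their values were seen. Alternatives covered each gland fitted alone, offsets, filters, normalization, array weights, the replicate block and each array left out.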

Additional observations from a re-analysis of the deposited data

Results flagged for a closer look

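The testosterone change differed between the lacrimal and submandibular glands for 4 genes, by a test of the difference itself. As lacrimal minus submandibular log2 change it was -1.349 for Nmb, 1.276 for Ttpa, 1.968 for Calcr and -0.8104 for Epyc. Their limma adjusted p were, in the same order, 0.00398, 0.0175, 9.23e-05 and 0.0493. For Ttpa the lacrimal signal was dim, so a fall in that gland would hardly show. In another pair of cases every testosterone pool lay on opposite sides of the placebo pools in 2 glands. Ttpa was higher with testosterone in the meibomian gland and lower in the submandibular gland, changes that differed by 2.719. Epyc was higher in the meibomian gland and lower in the lacrimal gland, changes that differed by 1.607. These last differences were not tested, because the meibomian comparison chose the genes. Groups of 3 pools are too small for the test of single outlying samples.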

How the results depend on the processing

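There were 30 alternatives per result. Calcr in the lacrimal gland and Nmb in the submandibular gland kept direction and call under all 30. Leaving out an array of another gland cannot move a gland's own change, only its error and adjusted p. Leaving out 1 array at a time left 1 to 2 of the 6 genes called in the lacrimal gland, Epyc being the one lost, and put the genes' median meibomian change between 0.9432 and 1.142, the highest without testosterone pool C. With each gland fitted alone, 1 of the 6 genes was called in the submandibular gland and 11 list genes in place of 24. In the meibomian gland, where 1 list gene was called, 6 were called with each gland alone, 2 with an offset 4-fold smaller, 3 with an offset 4-fold larger, 0 with quantile normalization over all arrays, 48 with array weights, and 0 to 5 with 1 array left out, the most without testosterone pool C. The cause was not tested. Under the replicate block, which takes same-lettered pools as pairs although they share only a letter, 0 list genes were called in the meibomian gland (Kdsr limma adjusted p = 0.0937), and the Epyc difference between the lacrimal and submandibular changes had limma adjusted p = 0.0549.

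Small differences that were uncalled or untested changed sign. Lacrimal Nmb was 0.04289 (quantile normalization over all arrays) and 0.03631 (within each gland), and -0.1936 to 0.09654 with 1 array left out. Lacrimal Ttpa was -0.09862 with array weights and -0.1588 to 0.1879 with 1 array left out. With 1 array left out, Cers4 ranged from -0.1915 to 0.004686 in the lacrimal and from -0.05785 to 0.1127 in the submandibular gland, and the Calcr level difference between the meibomian and submandibular glands from -0.009617 to 0.1528. Dim signals limit Ttpa in the lacrimal gland and Calcr in the meibomian gland, where the offset sets much of the size.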
